A study of Mus musculus with 14 samples.

Results

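Neurotransmitter release depends on proteins that fill, dock, prime and fuse synaptic vesicles, and 63 genes that encode them or their close relatives were followed in 14 mouse hippocampus libraries. They were chosen by symbol from the authors' deposited tables: SNAP-25 (Snap25), the vesicle-associated membrane proteins (Vamp), the syntaxins (Stx), the syntaxin-binding proteins (Stxbp), the synaptotagmins (Syt), the complexins (Cplx), the RIM proteins (Rims), the Munc13 proteins (Unc13), the synapsins (Syn) and the SV2 glycoproteins (Sv2). Of these, 59 had an assembled transcript in at least 1 library, and all 59 were tested, among 18617 genes with any assembled transcript. Cplx4, Stx11, Stx19 and Syt8 had none, which does not show that they were not expressed. The rule used symbols and no measured value.

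The mice were C57BL6, 30 days old, and either KMT2D+/+ or KMT2D+/bGeo, a heterozygous gene trap allele of Kmt2d, which encodes a histone H3K4 methyltransferase. TAK-418, which inhibits LSD1, an enzyme that removes histone methyl groups, was given at 1 mg/kg/day by oral gavage in methylcellulose, and the other mice received methylcellulose alone. Treatment started at 2 weeks of age and lasted 2 weeks, so every group, controls included, was gavaged. The vehicle groups held 3 wild types and 3 mutants, and the TAK-418 groups 5 wild types and 3 mutants, with 1 library per labelled sample. The study's design text gives 3 to 4 animals per group, so the 5 labelled wild types on the drug do not match it, and whether they are 5 separate mice was not tested. The mutants keep 1 untrapped copy of Kmt2d, and each library is RNA of bulk hippocampus. The labels do not say how litters relate, so p-values measure the spread between these samples. Library numbers below only tell libraries of a group apart.

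The membrane-bridging core of release is the SNARE complex. Synaptobrevin, encoded by Vamp1 and Vamp2, sits on the vesicle, while syntaxins and SNAP-25 sit on the plasma membrane, and their zippering pulls the membranes together. Munc13 and RIM proteins prime vesicles at the active zone, complexins clamp and assist the complex, and synaptotagmins sense calcium. Synapsins tether the reserve vesicles, and SV2 proteins are membrane glycoproteins of the vesicle. In forebrain neurons Syt1 is the main fast calcium sensor, whereas Syt2 serves mostly hindbrain and some inhibitory synapses.

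The alternative exons of Snap25 are shown first, because their use could be read library by library. The gene carries 2 mutually exclusive copies of exon 5, of which 5a dominates in immature brain and 5b in mature brain. Both lie on chromosome 2 (GRCm38, plus strand) inside the coding part of Snap25, 5a at chr2:136769743-136769860 and 5b at chr2:136770057-136770174. Each is 118 bases long, and 196 bases separate them. Capitals mark the 31 bases at which the copies differ, 73.7% of bases being the same. The sequences are from the GENCODE M21 transcripts.
Snap25 exon 5a: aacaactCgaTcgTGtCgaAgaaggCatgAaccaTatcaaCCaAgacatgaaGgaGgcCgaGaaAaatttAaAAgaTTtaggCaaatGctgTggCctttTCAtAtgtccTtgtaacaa
Snap25 exon 5b: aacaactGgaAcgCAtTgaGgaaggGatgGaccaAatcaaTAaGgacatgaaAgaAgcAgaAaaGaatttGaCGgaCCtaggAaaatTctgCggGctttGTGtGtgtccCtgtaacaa

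Levels are given as scaled abundance, which is the authors' FPKM-type abundance per kilobase of transcript model, summed over a gene's transcripts and scaled between libraries. The relative depth of the libraries, worked out from the steps between values, was 168 M (mega-reads) for wild-type TAK-418 library 1, and the other 13 lay between 35.1 and 60.0 M. Between 91.5% and 95.3% of abundance fell on annotated genes in 12 libraries, against 58.7% in mutant vehicle library 1 and 66.8% in mutant TAK-418 library 2. Kmt2d itself was at 13.8 to 14.2 in wild-type vehicle and 10.6 to 14.4 in mutant vehicle libraries, so that the groups overlapped. These values count transcripts over the whole gene, and the trapped exon was not separated. Markers of hippocampal neurons (8 of 8 with a value, among them Prox1 and Wfs1) summed to 605 to 723 units in all 14 libraries. Single markers shifted within that sum. Prox1 was at 30.1 to 30.6 in vehicle and 33.5 to 43.3 in treated wild types. C1ql2 was at 49.5 to 54.5 and 60.8 to 69.9, and Wfs1 at 50.9 to 61.1 and 40.5 to 50.3. Like Prox1 and C1ql2, Fibcd1 was wholly higher in treated wild types, Wfs1 was wholly lower, and the others overlapped. In mutants C1ql2 was at 50.9 to 57.6 under vehicle and 58.6 to 62.2 with TAK-418, again without overlap. Wfs1 was at 52.8 to 62.5 and 44.6 to 46.7 there, also apart, and the other neuron markers, Prox1 and Fibcd1 among them, overlapped. Zbtb20 ran from 23.8 to 112, and Spink8 was 0 in wild-type TAK-418 library 1. The part of these shifts in the drug differences below was not tested. Choroid plexus markers (8 of 8 with a value), of which Ttr was the highest, summed to 6481 in wild-type vehicle library 3 and 5049 in mutant vehicle library 1, to 910 in mutant vehicle library 3 and 609 in mutant TAK-418 library 1, and to 15.9 to 44.3 in the other 10. In bulk tissue, fewer cells of a type and less RNA per cell cannot be told apart.

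**Figure D1:**
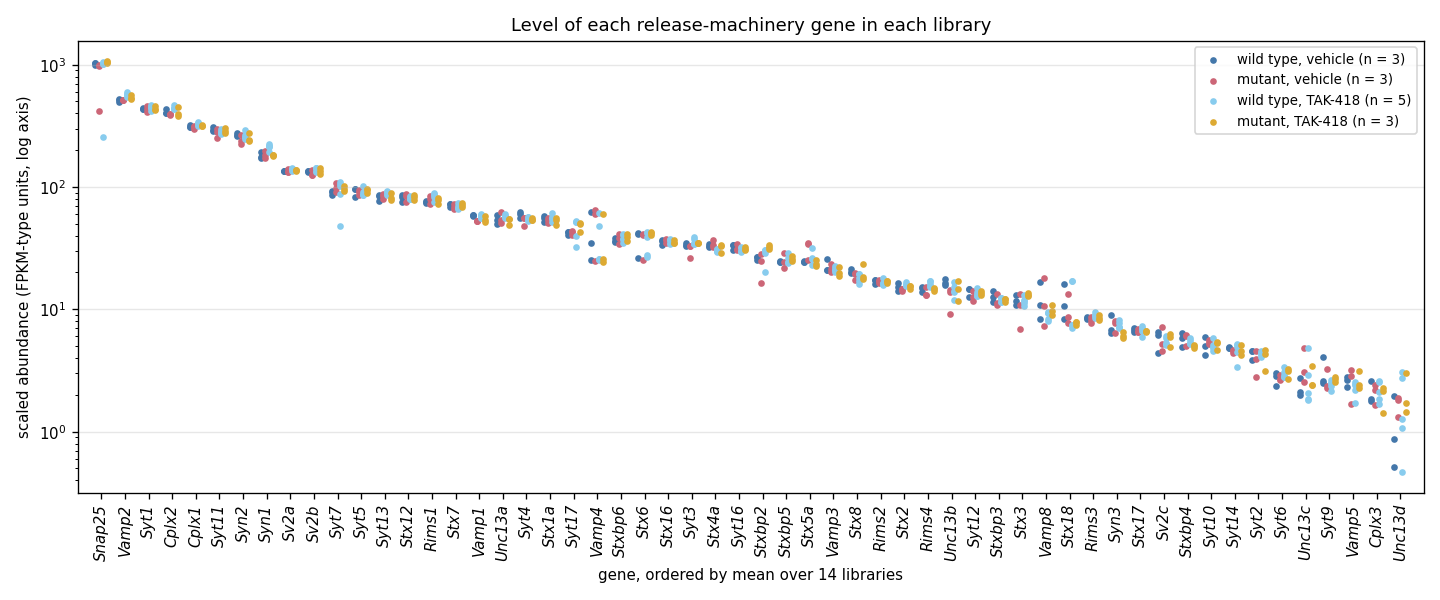
Scaled abundance of release-machinery genes with a value in at least 13 libraries (log axis, FPKM-type units), ordered by mean from left to right, with 1 point per library and the group as colour. Snap25 leads at a mean of 923 despite 2 low libraries, and for most genes the points of the 4 groups lie on top of each other.

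Snap25 was the highest of the 63, with a mean of 923 units. Vamp2 (539), Syt1 (439), Cplx2 (419), Cplx1 (317), Syt11 (286), Syn2 (257) and Syn1 (193) were among the next highest. In 12 libraries Snap25 ranged from 968 to 1068, which lay wholly above the 494 to 597 of Vamp2. Vamp2 in turn lay above Syt1 at 410 to 465. Syt1 and Cplx2 (384 to 465) overlapped and cannot be ordered, and neither can Syt11 (252 to 309) and Syn2 (223 to 290). At the other end stood Unc13d (mean 1.66), Cplx3 (2.08), Vamp5 (2.48) and Syt9 (2.66), and Syt15 had a value in 4 libraries only, at 0.165 to 0.619.

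Within most families 1 member carried much of the signal. Vamp2 made up 80.4% of the summed level of the 6 VAMP genes, Unc13a 74.6% of the 4 Munc13 genes and Rims1 66.4% of the 4 RIM genes. Stx12 and Stx7, which serve endosomal fusion, were at 81.5 and 70.2, above the 54.6 of the release syntaxin Stx1a. Among 17 synaptotagmins Syt1 held 36.8%, followed by Syt11, Syt7 (93.6), Syt5 (91.5) and Syt13 (85.5). Syt2 reached a mean of 4.14, far below Syt1.

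The levels of most release genes varied little between libraries. Over the 57 genes of the machinery with a value in all 14 libraries, the median coefficient of variation was 7.97%, against 10.5% over all 13210 genes with such values. Restricted to genes with a mean of 10 units or more, it was 6.93% for 43 release genes and 7.62% for 7624 genes. Sv2a was the steadiest of the core genes, at 132 to 143, a ratio of 1.08 between the highest and lowest library. Of the 57, 9 had a ratio of 2 or more (15.8%), against 27.1% of all genes with a value throughout. At a mean of 10 units or more the order was the other way, with 7 of 43 release genes (16.3%) against 14.4% of all genes.

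Snap25 was an exception. It read 992, 1033 and 1025 in wild types on vehicle, 968, 995 and 415 in mutants on vehicle, 257, 1016, 1007, 1054 and 1025 in wild types given TAK-418, and 1068, 1031 and 1042 in mutants given it. The low values were mutant vehicle library 3 and wild-type TAK-418 library 1, and the others lay within 968 to 1068. The assembled models of Snap25 differed in just these libraries. In the 12 others every Snap25 transcript had 8 exons and 1905 to 1969 bases. In mutant vehicle library 3 the leading model was 5226 bases long, with an exon of 3586 bases (chr2:136773895-136777480) that spans an annotated intron. In wild-type TAK-418 library 1 the leading model was 8434 bases long, with an exon of 6602 bases (chr2:136763573-136770174) that ends at the end of exon 5b.

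Abundance per kilobase multiplied by model length gives a quantity that does not divide by the length of the model. On that scale Snap25 was at 1970 in mutant vehicle library 3 and 1949 in wild-type TAK-418 library 1, inside the 1924 to 2082 of the other 12. The ratio of the highest to the lowest library was 4.15 for abundance and 1.08 for abundance times length. The Snap25 difference between genotypes under vehicle was -0.46 (SE 0.49, log2) in abundance and -0.029 in abundance times length. Leaving out those 2 libraries, it was -0.050. The TAK-418 difference in mutants was 0.51 (SE 0.49), and 0.065 by abundance times length and 0.092 without the 2 libraries. None of these passed limma's test (adjusted p = 0.998 and 1 on the abundance scale). In the authors' deposited table Snap25 stood at 868 FPKM in wild-type vehicle and 819 in mutant vehicle groups, with a log2 fold change of -0.083.

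**Figure D2:**
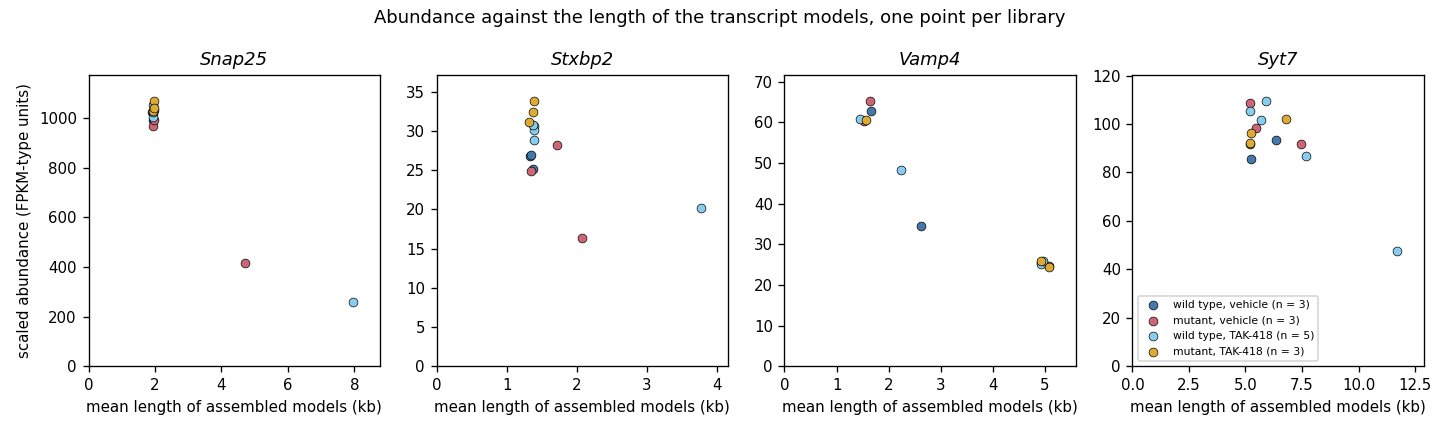
Scaled abundance (FPKM-type units) of Snap25, Stxbp2, Vamp4 and Syt7 against the mean length of their assembled models in kb, weighted by abundance, with 1 point per library and the group as colour. Snap25 is at 415 and 257 units in the 2 libraries with its longest models, and Syt7 (47.8) is lowest where its model is longest.

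A further 3 genes, chosen after their values were seen, varied with their modelled ends. Vamp4, a VAMP of the trans-Golgi network and endosomes, read 24.5 to 26 in the 7 libraries with a single model of 4920 to 5086 bases, and 34.6 to 65.2 in the 7 with 3 or 4 models and mean lengths of 1455 to 2622 bases. Each of the 4 groups held libraries of both kinds. Syt7, a slow calcium sensor of facilitation and asynchronous release, was at 47.8 in wild-type TAK-418 library 1, where its only model had 11717 bases, and at 85.7 to 109 elsewhere. Stx5a, a Golgi syntaxin, was listed at 0 in wild-type TAK-418 library 1 and at 22.8 to 34.9 in the others. There, 5 assembled transcripts with 9 or 10 introns of Stx5a ran on across 31 or 42 introns in all, and were not assigned to Stx5a. Their deposited abundances were 15.6, 4.11, 3.30, 1.51 and 0.831, so the 0 comes from the assignment.

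The choice between the copies of Snap25 exon 5 went to 5b almost throughout. Only 5b was assembled in 11 libraries. Exon 5a made up 5.52% of exon 5 abundance in mutant TAK-418 library 3 (59.1 of 5a and 1012 of 5b, both as deposited) and 4.96% in mutant vehicle library 3. In wild-type TAK-418 library 1 the leading model held both copies inside its exon of 6602 bases. Only 11.3% of Snap25 abundance there lay in models with either copy as a separate exon. Of that part, exon 5a made up 40.3%. The 5 exact two-sided permutation tests of this share gave adjusted p = 1 each. No group held more than 1 library with exon 5a, so no relabelling gave a smaller difference and these tests could not decide. With more such libraries, the design still cannot go below 0.1 with 3 libraries on each side or 0.0179 with 3 and 5. No form below the assembly's own threshold would be seen.

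The comparison of genotypes under vehicle asks what the trapped allele goes with in untreated tissue. No release gene passed limma's test (0 of 59, at an adjusted p under 0.05), and 0% of the 16484 genes tested did. At an unadjusted p under 0.05 there were 3 release genes, all lower in mutants, and 905 genes in all (5.49%). Here and below, such counts of all genes were not split by direction. Whatever the p, 40.7% of the 59 and 49.9% of all genes were higher in mutants. The median log2 difference was -0.027 over the 59 and 0 over all genes. Vamp1, the synaptobrevin of fast-spiking and motor synapses, had the smallest p. It read 58.7, 59.0 and 58.2 in wild-type vehicle and 52.7, 52.8 and 53.2 in mutant vehicle libraries, so the groups did not overlap and the spread within each was under 1 unit. The difference was -0.15 (SE 0.042, log2) (adjusted p = 0.699 by limma). Vamp1 was at 55.3, 57.6, 60.2, 55.3 and 58.5 in wild-type TAK-418 and 57.4, 54.0 and 52.1 in mutant TAK-418 libraries. Pvalb, a marker of the fast-spiking interneurons, was at 54.9, 56.0 and 43.9 in wild-type vehicle and 52.8, 58.2 and 43.0 in mutant vehicle libraries. Kcnc1, of the same list of 7 interneuron markers, was at 40.7, 43.1 and 46.1 against 37.2, 37.8 and 45.0. Each of the 7 overlapped between these groups. The part of these markers in the Vamp1 difference was not tested.

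Syt4, a synaptotagmin that does not bind calcium in the usual way and resides on dense-core vesicles, came next. Its values were 61.9, 60.5 and 55.5 in wild-type vehicle against 47.9, 56.0 and 55.4 in mutant vehicle libraries, and 57.2, 52.4, 55.1, 53.8 and 56.4 in wild-type TAK-418 against 56.2, 54.0 and 53.9 in mutant TAK-418 libraries. The vehicle groups overlapped by 1 library, with a difference of -0.16 (SE 0.062) and adjusted p = 0.83 by limma. Without mutant vehicle library 1 the difference was -0.089. Unc13b, a Munc13 priming factor of a subset of synapses, read 15.8, 17.7 and 16.5 in wild-type vehicle against 14.5, 9.16 and 13.7 in mutant vehicle libraries. Its difference was -0.42 (SE 0.17, adjusted p = 0.845 by limma) -0.25 by abundance times length, and -0.23 without mutant vehicle library 2. That library, the lowest at 9.16, had the longest Unc13b models of the 14, at 8629 bases on average. Treated libraries read 16.6, 14.1, 12, 13.8 and 15.2 in wild types and 14.6, 17 and 11.7 in mutants.

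Groups that do not overlap were counted as well. Under vehicle, 6 release genes lay wholly lower in mutants (10.2% of 59, against 4.53% of all genes) and 1 wholly higher (1.69%, against 4.39%). The 6 were Vamp1, Unc13b, Syt3, Cplx2, Stx8 and Syt14, and the 1 was Stx5a. Stx5a read 24.2, 24.1 and 24.7 in wild-type vehicle and 34.9, 25.2 and 34.2 in mutant vehicle libraries. Mutant libraries 1 and 3 also held models with only 2 to 5 introns of Stx5a, where the other 4 vehicle libraries had models with 9 or 10. The part of these models in the difference was not tested. Stx8, Syt14 and Stx5a were named after their values were seen, as were Stx4a, Stx2, Stxbp4, Stxbp5 and Stx18 where they are listed for groups that do not overlap. Cplx2, one of the main complexins, read 433, 406 and 406 in wild-type vehicle and 398, 390 and 396 in mutant vehicle libraries, a difference of -0.072 (SE 0.057). With TAK-418 it read 442, 465, 443, 432 and 430 in wild types and 447, 398 and 384 in mutants, so that there the groups overlapped.

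**Figure D3:**
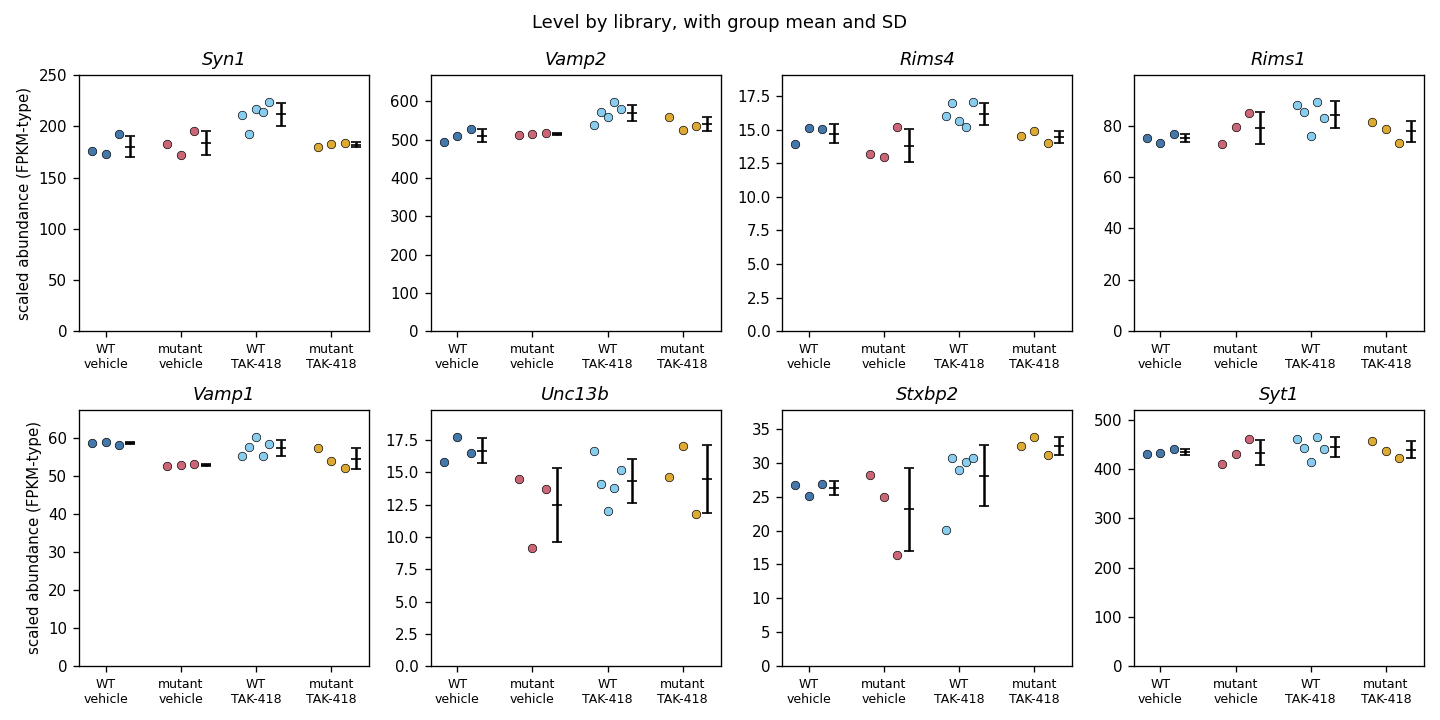
Scaled abundance (FPKM-type units, axes from 0) of 8 genes in each library, with group mean and SD (black) beside the points (3, 3, 5 and 3 libraries). Syn1 and Vamp2 are higher in treated than in vehicle wild types in every library, Vamp1 is lower in vehicle mutants, and Syt1 is level across the groups.

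For core genes the vehicle comparison can be given as an interval, here first for those with intervals closest about 0. Syt1 read 431, 432 and 441 in wild types on vehicle, 410, 431 and 461 in mutants on vehicle, 462, 444, 415, 465 and 442 in wild types given TAK-418, and 458, 437 and 423 in mutants given it. Its genotype difference under vehicle was -0.0047, with a 95% interval of -0.13 to 0.12. Vamp2 differed by 0.012 (-0.092 to 0.12), Cplx1 by -0.031 (-0.11 to 0.051) and Sv2a by 0.0084 (-0.061 to 0.078). Each of these intervals leaves room for less than 0.14 either way on the log2 scale. Those of the other core genes reached beyond 0.14 in at least 1 direction. Among them were Syt2 (-0.50 to 0.13), Syn2 (-0.31 to 0.031) and Rims1 (-0.081 to 0.22). That of Vamp1 (-0.24 to -0.053) did not include 0. For Snap25 the interval was wider (-1.53 to 0.60), and without mutant vehicle library 3 and wild-type TAK-418 library 1 the Snap25 difference was the -0.050 given above.

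**Figure D4:**
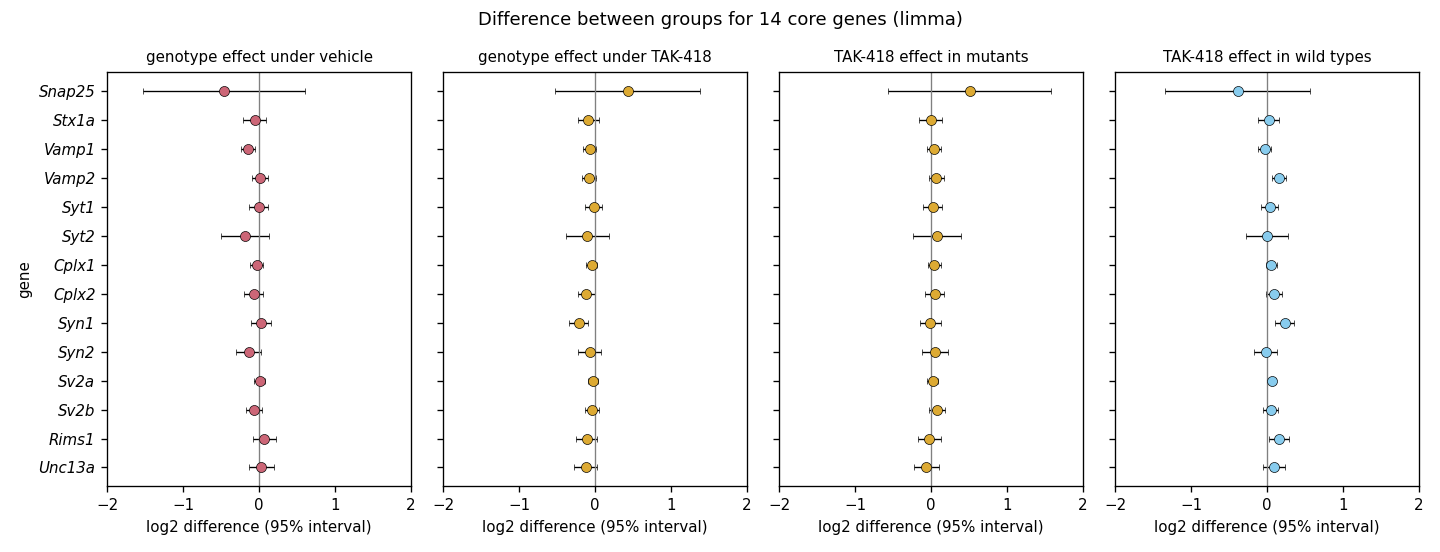
Log2 difference between groups for 14 core release genes under 4 comparisons, with points for the limma estimate and bars for its 95% interval. Most intervals are short and cross 0, that of Snap25 is the widest in each panel, and Syn1, Vamp2 and Rims1 lie above 0 in the comparison of treated with vehicle wild types.

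The comparison of treated with vehicle wild types asks what the drug goes with in normal tissue, and Syn1 led it. Again 0 of 59 release genes passed limma's test, against 0% of all genes. At an unadjusted p under 0.05 there were 7, 6 higher and 1 lower, beside 1392 genes in all (8.44%). Whatever the p, 47.5% of the 59 and 49.1% of all genes were higher with the drug. The median of the 59 was -0.0026 and that of all genes -0.0031. Syn1, on chromosome X, encodes synapsin I, which tethers reserve vesicles to one another and to actin. It read 176, 173 and 192 in vehicle wild types and 211, 193, 217, 214 and 224 in treated wild types, and these ranges touch without overlap, at 192.3 and 192.8. The difference was 0.23 (SE 0.056, 95% interval 0.11 to 0.35) (adjusted p = 0.277 by limma). In mutants Syn1 was at 182, 172 and 196 under vehicle and 180, 183 and 184 with TAK-418.

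Vamp2, the main synaptobrevin of forebrain, read 494, 509 and 527 in vehicle wild types and 539, 571, 559, 597 and 580 in treated wild types, without overlap, for a difference of 0.16 (SE 0.043, adjusted p = 0.328 by limma). Mutants read 512, 515 and 516 under vehicle and 560, 525 and 536 with TAK-418, also without overlap, for a difference of 0.071 (SE 0.048). The highest Vamp2 library, wild-type TAK-418 library 4, had the shortest model, at 1949 bases, against 2029 in the lowest, wild-type vehicle library 1. Over the 14 libraries the ratio of highest to lowest was 1.21 by abundance and 1.15 by abundance times length.

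In vehicle and treated wild types 4 release genes were wholly higher with the drug (6.78% of 59, against 3.95% of all genes) and 2 wholly lower (3.39%, against 2.4%). The 4 were Syn1, Vamp2, Rims4 and Sv2a, and the 2 were Stx4a and Stx8, plasma-membrane and endosomal syntaxins. Rims1, the main RIM scaffold of the active zone, read 75.3, 73.4 and 76.7 in vehicle wild types and 88, 85.3, 75.9, 89.0 and 82.8 in treated ones, a difference of 0.16 (SE 0.061). In mutants Rims1 was at 72.6, 79.5 and 84.9 under vehicle and 81.4, 78.6 and 73.3 with TAK-418. Sv2a read 134, 134 and 135 in wild types on vehicle, 133, 132 and 139 in mutants on vehicle, 140, 136, 141, 143 and 140 in wild types given TAK-418, and 137, 139 and 136 in mutants given it.

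In mutants, TAK-418 against vehicle asks whether the drug moves the same genes in the presence of the allele. None of the 59 passed limma's test, and 0.00607% of all genes did (1 of 16484). At an unadjusted p under 0.05 there were 3, all higher with the drug, and 724 genes in all (4.39%). Whatever the p, 62.7% of the 59 and 50.6% of all genes were higher with the drug. The median was 0.040 over the 59 and 0.0016 over all genes. Stxbp2, a syntaxin-binding protein gene known from granule release outside neurons, read 28.2, 24.9 and 16.3 under vehicle and 32.4, 33.8 and 31.1 with TAK-418. The groups did not overlap, and the difference was 0.50 (SE 0.18) (adjusted p = 1 by limma). It was 0.28 without mutant vehicle library 3 and wild-type TAK-418 library 1, and 0.19 by abundance times length. Wild types read 26.8, 25.1 and 26.9 under vehicle and 20.1, 30.6, 28.9, 30.1 and 30.7 with TAK-418. The lowest libraries of Stxbp2 were again mutant vehicle library 3 and wild-type TAK-418 library 1, with models of 2082 and 3781 bases on average against 1322 to 1722 in the others.

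Syt3, a synaptotagmin of postsynaptic and endocytic membranes, read 32.7, 26.5 and 32.9 in vehicle mutants and 35.2, 34.7 and 34.7 in treated mutants, a difference of 0.18 (SE 0.077, adjusted p = 1 by limma) and of 0.083 without mutant vehicle library 2. In wild types it read 35.0, 33.8 and 32.9 under vehicle and 37.6, 34.4, 39.2, 34.5 and 34.7 with TAK-418. Stx3, a syntaxin of ribbon synapses and postsynaptic receptor delivery, read 13.3, 6.90 and 10.8 in vehicle mutants and 12.9, 13.1 and 13.6 in treated mutants. The groups overlapped, with a difference of 0.37 (SE 0.17, adjusted p = 1 by limma). Without mutant vehicle library 2 the Stx3 difference was 0.13. By abundance times length it was -0.099, the opposite direction, and that library, the lowest, had models of 11793 bases on average. Wild types read 13.1, 10.8 and 11.8 under vehicle and 12, 10.6, 11.6, 13.1 and 11.2 with TAK-418. In treated against vehicle mutants 5 release genes were wholly higher (8.47%, against 4.53% of all genes), Stxbp2, Syt3, Vamp2, Cplx1 and Snap25, and 0 wholly lower (against 3.69%).

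Between genotypes on TAK-418, Syn1 again had the smallest p. None of the 59 was called, against 0.0121% of all genes (2 of 16484), and 5 were at an unadjusted p under 0.05, all lower in mutants, beside 817 genes in all (4.96%). Whatever the p, 49.2% of the 59 and 51.1% of all genes were higher in mutants. The difference of Syn1, mutant minus wild type, was -0.21 on the log2 scale (95% interval -0.34 to -0.093, SE 0.056, adjusted p = 0.815 by limma). By abundance times length the difference was -0.080. All 3 treated mutants (180 to 184) lay below all 5 treated wild types (193 to 224). The comparison shares its treated wild types with the one above, so the Syn1 values are not independent of it.

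Rims4, a short RIM family member that lacks the N-terminal domains of Rims1, read 16, 17, 15.6, 15.2 and 17 in treated wild types and 14.5, 14.9 and 14 in treated mutants, a difference of -0.15 (SE 0.059, adjusted p = 0.924 by limma). Under vehicle it read 13.9, 15.1 and 15.1 in wild types and 13.2, 13 and 15.2 in mutants. Syn3, the synapsin most tied to developing neurons, read 7.17, 7.70, 7.08, 8.11 and 7.17 in treated wild types and 6.04, 6.58 and 5.79 in treated mutants, a difference of -0.25 (SE 0.10, adjusted p = 0.924 by limma). Its vehicle values were 6.45, 6.76 and 8.91 in wild types and 7.74, 6.44 and 8.10 in mutants. With TAK-418, 6 release genes were wholly lower in mutants (10.2%, against 2.39% of all genes), Syn1, Rims4, Syn3, Unc13a, Stx2 and Stxbp4, and 1, Stxbp2, was wholly higher (1.69%, against 2.21%).

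Unc13a, the main Munc13 priming factor of excitatory synapses, read 53.4, 50.3 and 58.9 in wild types on vehicle, 53.3, 51.1 and 62.1 in mutants on vehicle, 57.4, 59.8, 55.8, 58.5 and 57.7 in wild types given TAK-418, and 55.1, 54.7 and 49.1 in mutants given it. The treated groups were apart by 1 unit or less at their nearest, and its genotype difference there was -0.13 (SE 0.068).

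Whether the drug difference depended on genotype was tested as an interaction. None of the 59 was called, against 0.00607% of all genes, and Syn1 was the only one at an unadjusted p under 0.05, among 732 genes (4.44%). Its interaction was -0.24 (SE 0.084) (adjusted p = 0.976 by limma), a drug difference of 0.23 in wild types against -0.0093 in mutants. By abundance times length the Syn1 interaction was -0.11. Rims1 had an interaction of -0.18 (SE 0.092) and Unc13b of 0.42 (SE 0.22), both with adjusted p = 0.976 by limma. For Rims1 the interaction was -0.11 without mutant vehicle library 3 and wild-type TAK-418 library 1, and for Unc13b it was 0.095 by abundance times length and 0.23 without mutant vehicle library 2.

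Treated mutants against vehicle wild types gave 0 of 59, against 0.0243% of all genes (4 of 16484), and 1 release gene at an unadjusted p under 0.05 among 891 (5.41%). That gene was Vamp1, at -0.10 (SE 0.042, adjusted p = 0.879 by limma), with all 3 treated mutants (52.1 to 57.4) below the 3 vehicle wild types. With the highest Vamp1 transcript alone the difference was 0.12, the opposite direction. Syn3 (-0.22, SE 0.11) and Syt4 (-0.11, SE 0.062) came next, with adjusted p of 0.936 and 0.948 by limma. Without wild-type vehicle library 3 the Syn3 difference was -0.095. Here 3 release genes were wholly higher (5.08%, against 5.54% of all genes), Stxbp2, Sv2a and Stxbp5, and 2 wholly lower (3.39%, against 4%), Vamp1 and Stx18. The mean length of Stx18 models ran from 1084 to 3588 bases over the libraries. It was 1088 bases in the highest Stx18 library (17.2, wild-type TAK-418 library 1) and 3496 in the lowest (7.01, wild-type TAK-418 library 5).

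The remaining core genes varied little between groups. Stx1a read 55.9, 58.3 and 51.7 in wild types on vehicle, 50.3, 55.6 and 53.2 in mutants on vehicle, 57.2, 56.2, 61.6, 51.6 and 54.7 in wild types given TAK-418, and 55.9, 53.6 and 49.0 in mutants given it. Cplx1, whose product binds the assembled SNARE complex, read 310, 320 and 311 in wild types on vehicle, 298, 310 and 314 in mutants on vehicle, 316, 327, 337, 321 and 332 in wild types given TAK-418, and 314, 318 and 316 in mutants given it. All groups of Stx1a overlapped, and Cplx1 was wholly higher in treated than in vehicle mutants by a fraction of a unit. Syn2, the other abundant synapsin, read 267, 259 and 274 in wild types on vehicle, 223, 238 and 268 in mutants on vehicle, 247, 258, 259, 266 and 290 in wild types given TAK-418, and 274, 241 and 238 in mutants given it. Sv2b read 136, 134 and 134 in wild types on vehicle, 124, 125 and 136 in mutants on vehicle, 142, 136, 133, 143 and 142 in wild types given TAK-418, and 142, 135 and 128 in mutants given it. In both Syn2 and Sv2b, 2 of the 3 vehicle mutants lay below every vehicle wild type, and the third did not.

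Genes at low levels were less even. Syt2 read 4.61, 3.89 and 4.53 in wild types on vehicle, 3.94, 2.80 and 4.54 in mutants on vehicle, 4.42, 4.09, 4.57, 4.36 and 4.22 in wild types given TAK-418, and 4.28, 3.13 and 4.62 in mutants given it. Unc13c, a Munc13 best known from cerebellum, read 2.00, 2.75 and 2.13 in wild types on vehicle, 2.55, 4.84 and 3.05 in mutants on vehicle, 1.80, 2.90, 4.86, 2.08 and 1.86 in wild types given TAK-418, and 2.40, 3.45 and 2.39 in mutants given it. Unc13d, the Munc13 of cytotoxic granule release in blood cells, had the widest ratio of the 57, at 6.56. It read 0.879, 1.97 and 0.513 in wild types on vehicle, 1.87, 1.32 and 1.82 in mutants on vehicle, 0.468, 1.28, 3.07, 1.07 and 2.75 in wild types given TAK-418, and 1.72, 2.99 and 1.46 in mutants given it, from 1 to 7 models per library with mean lengths of 411 to 3947 bases. Every pair of groups of these genes overlapped.

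Vamp8, an endosomal VAMP of secretory epithelia, and Syt9 were named after their values were seen, because both peaked where another tissue's markers did. Vamp8 read 10.9, 8.36 and 16.6 in wild types on vehicle, 18.1, 10.6 and 7.32 in mutants on vehicle, 9.27, 9.45, 8.32, 8.06 and 9.31 in wild types given TAK-418, and 8.98, 10.8 and 9.65 in mutants given it. Its highest libraries, at 16.6 and 18.1, were those with choroid plexus markers at 6481 and 5049, and Syt9 was highest in the same ones, at 4.06 and 3.24 against 2.15 to 2.80 in the other 12. In mutant vehicle library 3, with these markers at 910, Vamp8 was at its lowest (7.32) and Syt9 at 2.37. In mutant TAK-418 library 1, with the markers at 609, Vamp8 was at 8.98 and Syt9 at 2.70. The part of choroid plexus in these values was not tested.

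The authors' deposited tables gave 69 loci with a symbol of the machinery each, of which 64 were tested. Across genes, which are not independent replicates, the fold changes of 3 tables correlated most with the library differences of the pair they are named for. The table named for treated mutants and treated wild types had r = 0.295 with its own pair and 0.339 with vehicle mutants minus treated wild types. Its values for both groups were nearly those given for the same groups in the other tables, with an SD of the log2 ratio of 0.0021 for treated mutants and 7.5e-05 for treated wild types. In the table of mutant against wild-type vehicle groups 0 of 64 were called (0.224% of all loci tested), in that of treated mutants against vehicle wild types 0 (0.324%), in that of treated mutants against treated wild types 0 (0.218%), and in that of vehicle mutants against treated wild types 1 (0.611%). The 1 was Sv2c, the SV2 protein of basal ganglia and dopaminergic terminals, for which the authors' deposited table lists 3.32 FPKM in treated wild types, 2.54 FPKM in vehicle mutants, a log2 fold change of -0.39 and q = 0.0418. In the library values Sv2c read 4.56, 7.12 and 5.19 in vehicle mutants and 5.35, 5.84, 6.04, 5.17 and 5.15 in treated wild types. These overlapped, with means of 5.62 ± 1.34 (SD, n = 3) and 5.51 ± 0.406 (SD, n = 5), in the opposite order to the table. That order rests on mutant vehicle library 2, the highest at 7.12, without which the vehicle mutants averaged 4.87. Its Sv2c model was the shortest of the 14, at 2820 bases. Vehicle wild types read 6.13, 6.52 and 4.36, and treated mutants 6.25, 4.90 and 5.97. The pair of groups in that table crosses genotype and drug, so that neither can be told apart from the other.

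Some loci of these tables hold more than the named gene. Vamp3 shares a locus with Camta1, at 122 FPKM for vehicle wild types in the authors' deposited table against 22.6 ± 2.87 (SD, n = 3) units for Vamp3 in the library values, and Stx5a shares one with Nxf1 and Wdr74 at 121 FPKM against 24.3 units. In all, 6 of the 69 loci were joint. Rims1, Syt1, Stx3 and Stx6 were split over 2 or 3 loci, and the second Rims1 locus had a log2 fold change of 4.58 between vehicle groups at levels of 0.021 and 0.504 FPKM, which was not called.

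Other genes of the vesicle cycle, from a list of 57 that covers vesicle proteins, the SNARE recycling factors, active zone scaffolds, calcium channels and endocytic proteins, were all tested. None of the 57 passed limma's test in any of the 6 contrasts, where 0% to 0.0243% of all genes did. Between genotypes 1 was lower in mutants under vehicle at an unadjusted p under 0.05 (5.49% of all genes were at such a p) and 2 were lower on TAK-418 (4.96% of all genes). With the drug in mutants 2 were higher and 1 lower (4.39% of all genes), in treated mutants beside vehicle wild types 3 were higher (5.41%), and in the interaction 1 was higher and 1 lower (4.44%). For treated against vehicle wild types 8 were at an unadjusted p under 0.05, 6 higher and 2 lower, where 8.44% of all genes were. They were led by Ppfia4, a liprin scaffold of the active zone, at 0.25 (SE 0.060, adjusted p = 0.268 by limma). Ppfia4 read 29.1, 27.4 and 30.2 in vehicle wild types and 33.9, 35.8, 34.3, 34.6 and 34.4 in treated wild types, without overlap. Itsn1, an endocytic scaffold, followed at 0.29 (SE 0.079, adjusted p = 0.338 by limma), with 23.0, 22.7 and 20.7 against 29.9, 27.0, 30.5, 23.7 and 25.3. Synj1, the phosphatase that helps shed clathrin coats, read 99.98, 94.6 and 97.1 in vehicle wild types against 114, 110 and 105 in treated mutants, a difference of 0.17 (SE 0.053, adjusted p = 0.727 by limma).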

How the data were processed

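Hippocampus RNA was sequenced in 14 libraries, 1 library per labelled sample. The submitters' processing notes name FastQC, TopHat2 2.1.0 and mm10. Per the file headers, CLASS 2.1.7 assembled each library's transcripts, with a deposited abundance value that behaves as FPKM. The authors' deposited tables give FPKM per group, a log2 fold change, and p-values and q-values. Their group order was taken from the table names, which the library values matched best in 3 of 4 tables.

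Transcripts were assigned to GENCODE M21 genes (GRCm38) by shared introns, or for single-exon transcripts by an exon overlap of at least 0.5, and summed. Values were scaled by median of ratios over 13210 genes. Log2(value + 0.882) of the 16484 genes with a value in at least 3 libraries was fitted in limma 3.58.1 (R 4.3.3, 4 group means, trend, Benjamini-Hochberg), and fold changes on this scale understate those of low genes. Exon shares were compared by exact permutation tests in Python 3.11.15. Simulated data with known differences were used to check the limma step. Alternatives covered pseudocount, filter, scaling, transcript choice, trend and left-out libraries.

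Described library by library are 14 core genes, genes called in any table, the 3 with the smallest p per contrast and the 3 with the widest ratio, while others are said to be named after their values were seen. Members and lists were chosen with earlier results of these data known. Some results for genes of the set are not reported here, although counts over the set include them.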

Additional observations from a re-analysis of the deposited data

Results flagged for a closer look

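Dixon's test was run in the 5 wild-type TAK-418 libraries only, on 32 sets of values, each of a gene or of the Snap25 exon 5a share. In 4 sets 1 library lay far from the other 4, and it was library 1 each time. Libraries of the other groups were not examined and could not be flagged. Chance flags about 1 in 20 independent sets, but that rate does not apply here in full. All 32 sets share the same 5 libraries. Moreover, 7 of the genes examined, Stx5a among them, were chosen after their values were seen, and 2 of the 4 values come from the same Snap25 models. Snap25 was at 257 there (others 1007 to 1054), Stxbp2 at 20.1 (28.9 to 30.7) and Stx5a at 0 (23.0 to 32.0). The 0 of Stx5a comes from the assignment of its transcripts given above, not from their absence. The share of Snap25 exon 5a was 40.3% in that library and 0% in the other 4. Its relative depth was 168 M, against 35.1 to 60.0 M in the other 13 libraries, and its Snap25 and Stxbp2 models were the longest of the 14. The part of depth in these values was not tested.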

How the results depend on the processing

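Under 27 other settings no release gene passed limma's test in any of 161 pairs of contrast and setting, and the smallest adjusted p was 0.167. Of 617 recomputed differences, 611 kept their sign. Multiplying by length, or leaving out pairs of libraries, was chosen after seeing the data. Stx3 in mutants was -0.037 by the highest transcript and -0.099 by abundance times length. Snap25 in wild types was 0.013 without mutant vehicle library 3 and wild-type TAK-418 library 1, and -0.50 to 0.013 over single left-out libraries. Snap25 between treated mutants and vehicle wild types was -0.027 without scaling, and Vamp1 there was 0.12 by the highest transcript. At a q-value of 0.01 the authors' table of mutants on vehicle against wild types on TAK-418 called 0 release loci.

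With 1 library left out, the Snap25 exon 5a difference ranged over -1.65 to 1.84 points for the drug in mutants, 0 to 10.1 in wild types, -8.24 to 1.84 for genotype on the drug, 0 to 2.48 under vehicle, and 0 to 2.76 between treated mutants and vehicle wild types. The cause was not tested. No paired analysis was possible because replicate numbers were given in accession order. The assembly's own threshold limits what low forms can be seen.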
